A study of Mus musculus with 6 samples.

Results

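The 10 genes described here encode proteins that move sodium, chloride, phosphate and water across epithelia, together with a kinase that controls some of them: Slc34a2, Aqp3, Aqp5, Aqp8, Scnn1a, Scnn1b, Cftr, Slc12a2, Atp1b1 and Sgk1. They were taken by symbol from the 24498 genes of the deposited count table, and all 10 symbols were found and passed the filter on low counts, which kept 13846 genes. RNA was sequenced in bulk from marker-positive epithelial cells sorted from the digested prostate of male mice. The line labelled Nkx carried an inducible CreER(T2) driver and, as reporter, the allele Gt(ROSA)26Sortm1(EYFP)Cos, which marks cells with a yellow fluorescent protein. In the other line, Clu-CreER(T2), the driver of clusterin, was combined with the reporter allele Gt(ROSA)26Sortm14(CAG-tdTomato)Hze, which marks cells with a red fluorescent protein. All mice entered at the age of 8 weeks and were harvested 4 weeks later. Nkx-marked cells came from mice left intact (Nkx intact) and from mice whose testes were removed at entry (Nkx castrate). Clu-marked cells came from intact mice only (Clu intact), so the contrast of Clu intact with Nkx castrate changes the line, the reporter and the hormonal state at the same time. A cell is marked only if its driver was active when the recombinase was induced, and the time of induction is not given in the sources used here. Each group held 2 libraries, and the labels do not say whether these came from separate animals, so that p-values measure the spread between libraries, which may be technical.

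In a secretory epithelium the sodium pump, built from an alpha chain and a beta chain such as Atp1b1, keeps cell sodium low. The cotransporter Slc12a2 (NKCC1) uses that gradient to load chloride across the basolateral membrane, channels such as Cftr release chloride at the apical membrane, and water follows through aquaporins. In an absorptive epithelium the apical sodium channel ENaC, whose alpha and beta subunits are Scnn1a and Scnn1b, takes sodium back from the lumen, and the kinase Sgk1 keeps ENaC at the membrane by blocking its ubiquitin ligase Nedd4l. The prostate secretes a fluid rich in citrate and zinc whose production depends on androgen.

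Counts assigned to genes totalled 10220118 to 17412874 per library, and 1 count was worth 0.0561 to 0.0988 CPM (counts scaled to library size, TMM factors included). The 6 general epithelial markers, among them Epcam and Krt8, all had counts in every library and summed to 3465 to 10482 CPM. The 6 distal luminal secretory markers, which include Pbsn and Msmb, together reached 14420.1 and 18748 CPM (Nkx intact), 199 and 279 CPM (Nkx castrate) and 8075 and 5983 CPM (Clu intact). Not all followed the sum: Msmb was at 145 and 60.1 CPM in Nkx intact and at 163 and 159.5 CPM in Clu intact. Spink1 was also highest in Clu intact (3.54 and 10.3 CPM), and the other distal markers were highest in Nkx intact. The 7 proximal luminal markers, which include Krt4 and Psca, summed to 147 to 366 CPM in the 4 Nkx libraries and to 4025 and 4536 CPM in Clu intact. Among them only Ly6d was highest in Nkx castrate (8.42 and 9.76 CPM, against 2.36 and 3.95 CPM in Clu intact). RNA of other cells was also present. Library 1 of Nkx castrate had the largest sum of stromal and smooth muscle markers (2209.6 CPM over 12 markers, against 552 to 762 CPM elsewhere). It also had the most leukocyte RNA (153 CPM over 10 markers, against 16.1 to 93.4 CPM). Of the 12 markers, Myh11 of smooth muscle was at 923 CPM in this library, against 44.8 to 249.9 CPM elsewhere. The collagen gene Col1a1 was lower in it (46.3 CPM) than in Nkx intact and Clu intact (72.8 to 82.1 CPM), as were Col1a2 and Col3a1. Over 10 endothelial markers the sums were highest for Clu intact (1028 and 424 CPM), then Nkx castrate (415 and 65.3 CPM) and Nkx intact (68.4 and 47.7 CPM). The 6 urothelial markers, of which 4 or 5 had counts in a library, summed to 123 and 155 CPM (Nkx intact), 352 and 534 CPM (Nkx castrate) and 353 and 393 CPM (Clu intact). Upk3a, a uroplakin, was at 146 and 197 CPM in Nkx castrate and at most 0.574 CPM in the other 4 libraries, and Upk1a was at 13.7 and 19.8 CPM (Nkx intact), 82.8 and 181 CPM (Nkx castrate) and 127 and 163 CPM (Clu intact). Upk3b and Krt20 were at most at 0.753 CPM. The 8 basal markers summed to 4816 and 4886 CPM (Nkx intact), 4635 and 2907 CPM (Nkx castrate) and 2972 and 3082 CPM (Clu intact). The 7 seminal vesicle markers reached 81.3 and 148 CPM in Nkx intact and at most 4.98 CPM elsewhere, and all 7 were at 0 in Nkx castrate 2 and Clu intact 2. Nkx castrate 1, the deepest library, had counts for 18516 genes, against 15045 to 15778 in the others.

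After castration, Nkx-marked cells held more mRNA of the chloride-loading cotransporter Slc12a2, the phosphate cotransporter Slc34a2, the water channel Aqp8 and the chloride channel Cftr, and less of the sodium pump chain Atp1b1. These 5 of 10 genes passed the test (4 higher and 1 lower), where 8.61% of all genes tested did. The libraries of the 2 groups did not overlap for 9 of the 10, which was true of 49.9% of all genes. The median log2 fold change was 2.60 over the 10 genes and 0.047 over all genes tested. The 10 genes were chosen with earlier results of these data known, so such shares and medians, here and below, only describe them. Cftr and Aqp8, with 0 and 6 counts in Nkx intact, passed the filter on low counts through the groups where they were higher. In bulk RNA, fewer cells of a type and less RNA per cell cannot be told apart, here and below. Among the urothelial markers, Upk3a and Upk1a, given above, were also higher in both Nkx castrate libraries than in Nkx intact. For Upk1b the groups overlapped (Nkx intact: 108 and 134 CPM, Nkx castrate: 122 and 154 CPM). So did they for Upk2 (Nkx intact: 0.383 and 0.79 CPM, Nkx castrate: 0.561 and 2.37 CPM). Upk3b and Krt20 were close to absent, as stated above. The part of urothelial RNA in the differences of the transport genes was not tested. The number of transport genes called was 4 without Nkx intact 1, 3 without Nkx intact 2, 7 without either Nkx castrate library, and 4 without either Clu intact library.

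Among intact mice, Clu-marked cells held more Slc12a2, Slc34a2, Aqp5 and Cftr mRNA than Nkx-marked cells, and less of the ENaC subunit Scnn1b. Again 5 of 10 genes passed (4 higher and 1 lower), beside 11.3% of all genes tested. The libraries did not overlap for 9 of the 10 genes, against 63.2% of all genes. The median log2 fold change was 2.16 over the 10 genes and -0.0078 over all genes. The number called was 4 without Nkx intact 1, 1 without Nkx intact 2, 8 without either Nkx castrate library and 3 without either Clu intact library. This contrast and the castration contrast share the Nkx intact libraries, so that their values are given side by side and not correlated.

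Between Clu intact and Nkx castrate, 7 of 10 genes passed the test, beside 16.9% of all genes. Slc12a2, Aqp5, Scnn1a and Atp1b1 were higher in Clu intact, and Slc34a2, Aqp3 and Aqp8 were higher in Nkx castrate. The libraries did not overlap for 8 of the 10 genes, against 61.4% of all genes, and the median log2 fold change was 0.11, against -0.003 over all genes. The number called was 6 without Nkx intact 1, 5 without Nkx intact 2, 8 without either Nkx castrate library and 3 without either Clu intact library. Over the 3 contrasts, Slc34a2 and Slc12a2 were called in every one, a pattern shared by 1.26% of all genes tested, and Sgk1 in none, as was the case for 76.9% of genes.

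**Figure D1:**
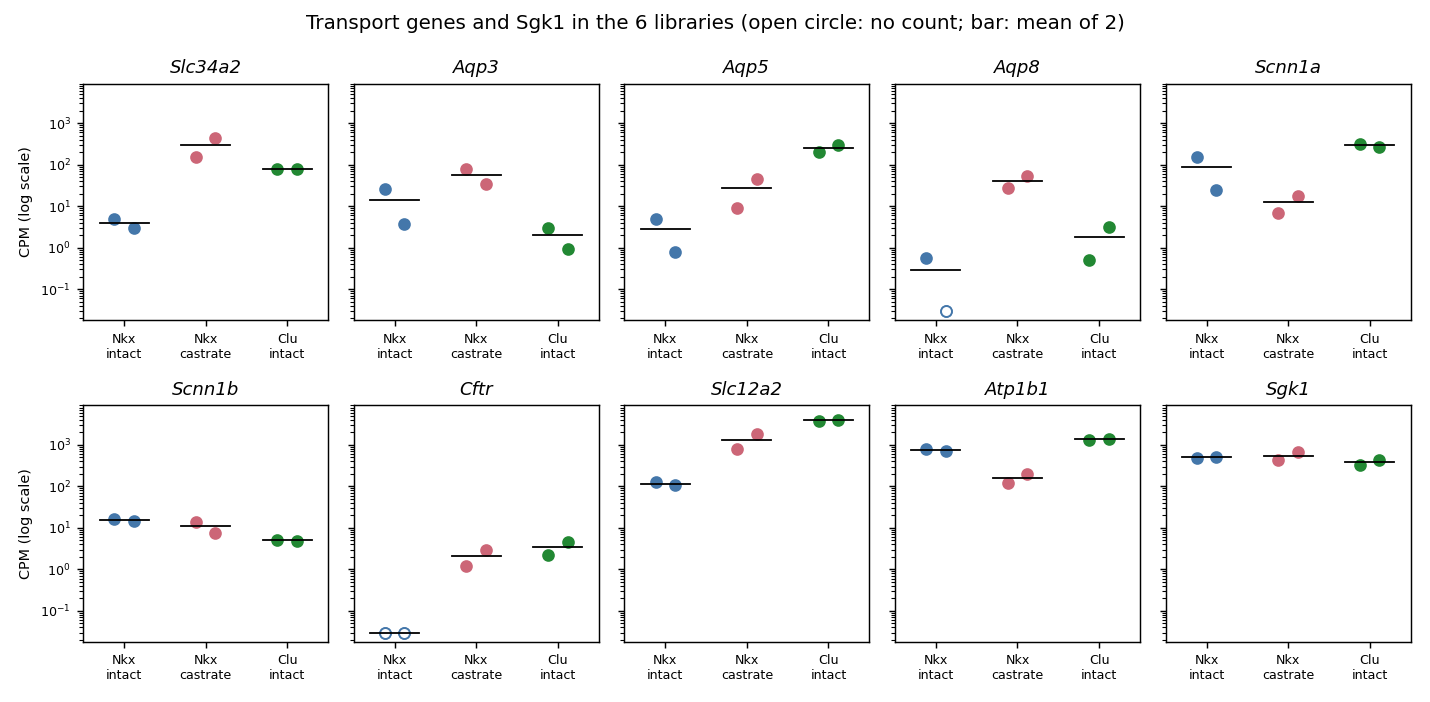
CPM on a log axis in each of the 6 libraries for the 10 genes, with 1 point per library, a bar at the mean of 2 libraries and open circles for libraries without a count. Slc12a2 rises from 108 and 127 CPM in Nkx intact to 3853 and 4100.3 CPM in Clu intact, while the 6 Sgk1 points lie between 331 and 676 CPM.

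Slc12a2, which brings sodium, potassium and chloride into the cell, was at 127 and 108 CPM (Nkx intact), 821 and 1883 CPM (Nkx castrate) and 3853 and 4100.3 CPM (Clu intact). The groups formed 3 steps with no overlap. The rise with castration was 11.5-fold (log2 fold change 3.53, SE 0.35; edgeR quasi-likelihood test, Benjamini-Hochberg adjusted p = 0.00241), and the difference between Clu intact and Nkx intact was 33.9-fold (log2 5.08, SE 0.35; edgeR, adjusted p = 0.000579). Clu intact was 2.94-fold above Nkx castrate (log2 1.56, SE 0.35; edgeR, adjusted p = 0.0215). That last call was lost when any library of Nkx intact or Clu intact was left out (edgeR, adjusted p from 0.0557 to 0.0938), with only the groups compared and against a 2-fold minimum, and its log2 value was 2.29 without Nkx castrate 2. The castration call was lost without Nkx intact 2 (log2 3.41, edgeR adjusted p = 0.0562), and its log2 value was 2.80 without Nkx castrate 2. The lower of the Nkx castrate libraries was the one with more stromal and leukocyte RNA, whose part in the spread was not tested.

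Cftr, the apical chloride channel mutated in cystic fibrosis, had no count in either Nkx intact library. It had 22 and 40 counts in Nkx castrate (1.23 and 2.96 CPM) and 27 and 50 counts in Clu intact (2.28 and 4.70 CPM). Against a floor of 3 counts over the Nkx intact libraries, Cftr was at least 14.4-fold higher in Nkx castrate and at least 23.9-fold higher in Clu intact (edgeR quasi-likelihood test, Benjamini-Hochberg adjusted p = 0.0401 and 0.0233). Both calls were lost when either Nkx intact or either Clu intact library was left out (edgeR, adjusted p from 0.0732 to 0.178) and in limma-voom (adjusted p = 0.137 and 0.0818), as well as against a 2-fold minimum, and the castration call also with only the groups compared. Clu intact and Nkx castrate overlapped for Cftr (log2 fold change 0.74, 95% interval -1.49 to 2.96). Its level stayed far below that of Slc12a2 in every library: per kilobase of exon, Clu intact averaged 0.45 CPM of Cftr and 364 CPM of Slc12a2.

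Slc34a2 (NaPi-IIb), the apical sodium-phosphate cotransporter of lung and gut epithelia, was at 4.97 and 2.96 CPM (Nkx intact), 157 and 451 CPM (Nkx castrate) and 77.0 and 77.3 CPM (Clu intact). Unlike Slc12a2, it was highest in Nkx castrate, and the 3 groups did not overlap. It rose 76.2-fold with castration (log2 fold change 6.25, SE 0.50; edgeR quasi-likelihood test, Benjamini-Hochberg adjusted p = 0.00122). Clu intact was 19.4-fold above Nkx intact (log2 4.28, SE 0.50; edgeR, adjusted p = 0.00283) and 3.94-fold below Nkx castrate (log2 -1.98, SE 0.43; edgeR, adjusted p = 0.0211). The castration call was kept when each library was left out, with a log2 value of 5.29 without Nkx castrate 2. The call of Clu intact over Nkx intact was lost without Nkx intact 2 (edgeR, adjusted p = 0.053) and in limma-voom (adjusted p = 0.0542). The call against Nkx castrate was lost without Nkx intact 2, Clu intact 1 or Clu intact 2 (edgeR, adjusted p = 0.0508, 0.102 and 0.127), with only the groups compared and against a 2-fold minimum, and its log2 value was -1.01 without Nkx castrate 2. Of 5 other genes of phosphate transport, 3 had enough counts to be tested, and with castration their log2 fold changes were 0.21 (Slc20a1), -0.37 (Slc20a2) and -0.22 (Xpr1), with edgeR adjusted p-values of 0.827, 0.479 and 0.574.

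The 3 aquaporins took 3 different courses. Aqp5, a water channel of salivary, lacrimal and airway gland cells, was at 4.78 and 0.79 CPM (Nkx intact), 8.81 and 45.2 CPM (Nkx castrate) and 207 and 291 CPM (Clu intact). Both Clu intact libraries were above every Nkx library. Aqp5 was 88.5-fold higher in Clu intact than in Nkx intact (log2 fold change 6.47, SE 0.86; edgeR quasi-likelihood test, Benjamini-Hochberg adjusted p = 0.00546) and 9.26-fold higher than in Nkx castrate (log2 3.21, SE 0.72; edgeR, adjusted p = 0.0276). Its difference with castration (log2 3.26, SE 0.87, 95% interval 1.24 to 5.27) missed the threshold (edgeR, adjusted p = 0.063) and passed without Nkx castrate 1 (log2 4.01). The same value was 1.64 without Nkx castrate 2, 2.49 without Nkx intact 2 and 5.06 without Nkx intact 1. The call over Nkx intact was lost without Nkx intact 2 (log2 5.70; edgeR, adjusted p = 0.0617), and the log2 value was 8.29 without Nkx intact 1. The call over Nkx castrate was lost without either Clu intact library (edgeR, adjusted p = 0.0559 and 0.118) and against a 2-fold minimum, and the log2 value was 2.46 with Nkx castrate 2 alone and 4.83 with Nkx castrate 1 alone.

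Aqp8, which passes water, ammonia and hydrogen peroxide, was close to absent outside Nkx castrate. It had 6 and 0 counts in Nkx intact (0.574 and 0 CPM) and 6 and 34 counts in Clu intact (0.506 and 3.20 CPM), against 488 and 721 counts in Nkx castrate (27.4 and 53.3 CPM). The rise with castration was 134-fold as fitted (log2 fold change 7.07, SE 1.22; edgeR quasi-likelihood test, Benjamini-Hochberg adjusted p = 0.00874), and it rests on 6 counts in Nkx intact. Clu intact was 21.9-fold below Nkx castrate (log2 -4.46, SE 0.83; edgeR, adjusted p = 0.0138), and its libraries overlapped with those of Nkx intact. The castration call was lost without Nkx intact 2 (log2 6.11; edgeR, adjusted p = 0.0897) and in limma-voom (adjusted p = 0.118), and leaving out Nkx intact 1 leaves no count in that group. The call against Nkx castrate was lost without Clu intact 1 (log2 -3.63; edgeR, adjusted p = 0.0518), and the log2 value was -6.26 without Clu intact 2. Aqp8 differed from Aqp5 in the group that held most of its mRNA, Nkx castrate for Aqp8 and Clu intact for Aqp5.

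Aqp3, a basolateral channel for water and glycerol, was at 25.3 and 3.65 CPM (Nkx intact), 77.4 and 33.9 CPM (Nkx castrate) and 3.04 and 0.941 CPM (Clu intact). Clu intact lay below every Nkx library. Aqp3 was 27.5-fold lower in Clu intact than in Nkx castrate (log2 fold change -4.78, SE 0.90; edgeR quasi-likelihood test, Benjamini-Hochberg adjusted p = 0.0137). That call was lost without Clu intact 2 (log2 -4.17; edgeR, adjusted p = 0.0949) and in limma-voom, and the log2 value was -4.06 without Nkx castrate 1 and -5.85 without Clu intact 1. The other contrasts did not pass: log2 1.94 with castration (95% interval 0.10 to 3.79; edgeR, adjusted p = 0.202) and -2.84 for Clu intact over Nkx intact (95% interval -4.96 to -0.72; edgeR, adjusted p = 0.0956). Aqp3 was highest in Nkx castrate 1, the library with the most leukocyte RNA. Nkx castrate 2 had less leukocyte RNA than Nkx intact (21.4 CPM against 93.4 and 79.7 CPM) and more Aqp3 (33.9 CPM against 25.3 and 3.65 CPM). Ighm, the immunoglobulin heavy chain of B cells, had one of the 2 profiles nearest to Aqp3 and was at 195 and 26.4 CPM in the first and second Nkx castrate library. Cd79a, a leukocyte marker of B cells, was at 0.786 and 0 CPM in these libraries. The part of leukocytes in the Aqp3 value was not tested. Both values that missed the threshold depended on single libraries. The castration value was log2 3.91 and 1.13 without the first and second Nkx intact library. It was 1.23 with the first Nkx castrate library left out, and 2.41 with the second left out, where it passed (edgeR, adjusted p = 0.0389). That of Clu intact over Nkx intact was -0.85 and -3.64 without the first and second Nkx intact library and -3.92 and -2.23 without the first and second Clu intact library, and it passed without either Nkx castrate library (edgeR, adjusted p = 0.0146 and 0.0173). Both also passed when no filter on low counts was applied, and the latter also when the fit held only the 4 libraries compared. Of the other 8 aquaporins, 3 were tested and 1 was called: Aqp11, an intracellular channel named here after its values were seen, was 10.8-fold higher in Clu intact (6.92 and 12.3 CPM) than in Nkx intact (0.574 and 1.19 CPM; edgeR, adjusted p = 0.0308). Aqp1, the channel of endothelium and red cells, was at 22.4 and 13.6 CPM (Nkx intact), 138 and 17 CPM (Nkx castrate) and 112 and 41.2 CPM (Clu intact). In each group it was higher in the library with more endothelial RNA, whose part in the Aqp1 values was not tested. Aqp6 and Aqp12 had no count in any library.

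Scnn1a, the ENaC subunit that is needed for channel activity, was at 153 and 24.5 CPM (Nkx intact), 6.73 and 18.0 CPM (Nkx castrate) and 311 and 272 CPM (Clu intact). The Clu intact libraries were the highest and the Nkx castrate libraries the lowest, a 23.8-fold difference (log2 fold change 4.57, SE 0.74; edgeR quasi-likelihood test, Benjamini-Hochberg adjusted p = 0.00972) that stayed called when each library was left out, with log2 5.44 without Nkx castrate 2. Nkx intact lay between them and was split, its libraries differing 6.25-fold. Neither contrast with Nkx intact passed: log2 -2.86 with castration (95% interval -4.58 to -1.14; edgeR, adjusted p = 0.0681) and 1.71 for Clu intact (95% interval 0.05 to 3.38; edgeR, adjusted p = 0.188). Both values turned on which Nkx intact library was kept. They were -1.01 and 3.59 without Nkx intact 1, against -3.64 and 0.93 without Nkx intact 2, and the first passed in the latter case and the second in the former (edgeR, adjusted p = 0.0372 and 0.0419). Leaving out either Nkx castrate library also brought both below the threshold (edgeR, adjusted p up to 0.0489). Such a gap between the Nkx intact libraries was rare: with 0.5 CPM added, 5 of 9031 genes at a mean of at least 10 CPM differed at least 6-fold, a limit chosen after these values were seen, and Scnn1a and Aqp3 were 2 of the 5. Seminal vesicle markers summed to 81.3 and 148 CPM in these 2 libraries, the lower sum in the one with more Scnn1a and Aqp3, and their part in the gap was not tested.

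Scnn1b, the beta subunit, differed less between groups. It was at 16.7 and 14.5 CPM (Nkx intact), 14.1 and 7.69 CPM (Nkx castrate) and 5.15 and 4.89 CPM (Clu intact). Clu intact was 3.11-fold below Nkx intact (log2 fold change -1.64, SE 0.41; edgeR quasi-likelihood test, Benjamini-Hochberg adjusted p = 0.0424), a call that was lost when any library of these groups was left out (edgeR, adjusted p from 0.15 to 0.246), with library totals as the only scaling, against a 2-fold minimum and in limma-voom. The basal markers Krt5 (399 and 393, 288 and 157, 61.8 and 99.2 CPM in Nkx intact, Nkx castrate and Clu intact) and Trp63 (249 and 238, 61.5 and 34.7, 13.2 and 24.6 CPM) had the same order of groups as Scnn1b. The basal markers Krt15 (1079 and 1091, 1259 and 981, 1086 and 1299 CPM) and Itgb4 (431 and 404, 298 and 188, 398 and 375 CPM) did not. The remaining basal markers, Krt14, Dst, Col17a1 and Lamb3, had the order of Scnn1b in their group means, with some overlap between libraries of neighbouring groups. The part of basal cells in the Scnn1b difference was not tested. The Scnn1b difference with castration was log2 -0.51 (95% interval -1.43 to 0.40). That of Clu intact from Nkx castrate was -1.12 (95% interval -2.06 to -0.18; edgeR, adjusted p = 0.10). The latter depended on single libraries, with log2 values from -1.48 to -0.61 when each library was left out. Scnn1g, the gamma subunit, which is not among the 10 genes and is named for its place in the channel, was at 6.70 and 7.80, 1.23 and 4.29, and 1.01 and 2.26 CPM in the same order of groups and was not called. Per kilobase of exon, Scnn1a exceeded Scnn1b 38.5-fold and 35.5-fold in Clu intact, but 5.83-fold and 1.08-fold in Nkx intact and 0.303-fold and 1.49-fold in Nkx castrate. These ratios compare levels within a library and were not tested between groups.

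**Figure D2:**
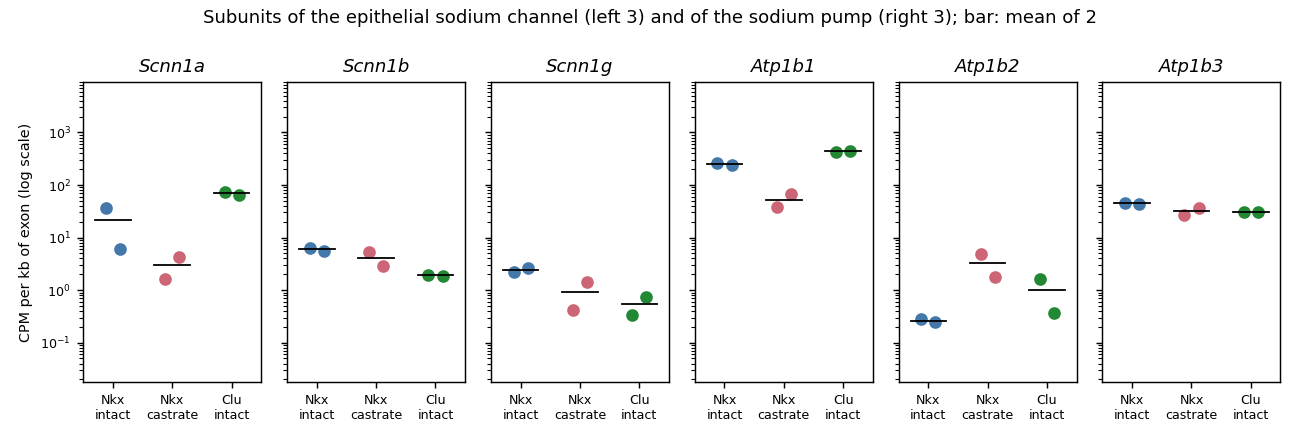
CPM per kilobase of exon on a log axis for 3 ENaC subunits and 3 beta chains of the sodium pump, with 1 point per library and a bar at the mean of 2. In Clu intact Scnn1a sits at 65.9 and 75.2 CPM per kilobase and Scnn1b at 1.86 and 1.95, and Atp1b1 is the most abundant of the 3 beta chains in each library.

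Atp1b1, the beta chain that brings the sodium pump to the membrane, was at 798 and 732 CPM (Nkx intact), 118 and 205 CPM (Nkx castrate) and 1332 and 1388 CPM (Clu intact). The groups did not overlap. It fell 4.75-fold with castration (log2 fold change -2.25, SE 0.26; edgeR quasi-likelihood test, Benjamini-Hochberg adjusted p = 0.00347) and was 8.43-fold higher in Clu intact than in Nkx castrate (log2 3.08, SE 0.26; edgeR, adjusted p = 0.000603). Both calls held when each library was left out. The difference of Clu intact from Nkx intact, 1.78-fold, did not pass (log2 0.83, 95% interval 0.23 to 1.43; edgeR, adjusted p = 0.085) but did without either Nkx castrate library. Atp1b3, another beta chain of the pump and named here after its values were seen, was at 109.5 and 104 CPM (Nkx intact), 64.8 and 88.4 CPM (Nkx castrate) and 73.6 and 73.3 CPM (Clu intact) and passed in no contrast (edgeR, adjusted p from 0.134 to 0.869). Per kilobase of exon, Atp1b1 exceeded Atp1b3 in every library. In the GENCODE M21 annotation, 18.7% of the exon bases of Atp1b1 lie under exons of Nme7 on the opposite strand, and the strand setting of the counts is not given in the sources used here.

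Sgk1, the kinase induced by mineralocorticoid, glucocorticoid and other signals, was the only 1 of the 10 genes that passed in no contrast. It was at 498 and 501 CPM (Nkx intact), 425 and 676 CPM (Nkx castrate) and 331 and 438 CPM (Clu intact). The log2 difference was 0.14 with castration (95% interval -0.44 to 0.72), -0.38 for Clu intact over Nkx intact (95% interval -0.96 to 0.20) and -0.52 for Clu intact over Nkx castrate (95% interval -1.10 to 0.06), with edgeR adjusted p-values of 0.804, 0.398 and 0.201. The sign with castration turned without Nkx castrate 2 (log2 -0.24), and the last difference passed without Nkx castrate 1 (log2 -0.81; edgeR, adjusted p = 0.00586). Fkbp5, a cochaperone gene that androgen, progesterone and glucocorticoid receptors induce, was called in all 3 contrasts over the same libraries: 193 and 143 CPM (Nkx intact), 33.6 and 19.3 CPM (Nkx castrate) and 432 and 764 CPM (Clu intact).

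Promoter sequences are printed for some of the 10 genes, to show what lies before their start sites. These are Sgk1, which passed in no contrast, Slc34a2 and Aqp8, which rose with castration, and Atp1b1, which fell. The RefSeq-based table of promoters (build GRCm38.p6) held 8 of the 10 genes in 13 windows, 6 of them for Sgk1, and lacked Scnn1a and Slc12a2. A set of 6 motifs was searched on both strands in the 250 bases before each start: the palindromic response element of the androgen and glucocorticoid receptors (AGAACA and, after any 3 bases, its reverse complement), the single arm of it (AGAACA, which also lies inside the full element), the letters TGTTTAC of forkhead proteins, the core promoter box TATAAA, the upstream promoter box CCAAT and the GC box, GGGCGG, bound by Sp1. The full element was found in 3 of 32851 windows, 0.00913%, and 1 of the 3 was a window of Sgk1. It begins 189 bases before the start of that window's transcript and 965 bases before the start most downstream among the 6. The sequences are given 5′ to 3′ on the strand of the gene, with the motif matches in capitals:
Sgk1, chr10:21993640-21993889, plus strand: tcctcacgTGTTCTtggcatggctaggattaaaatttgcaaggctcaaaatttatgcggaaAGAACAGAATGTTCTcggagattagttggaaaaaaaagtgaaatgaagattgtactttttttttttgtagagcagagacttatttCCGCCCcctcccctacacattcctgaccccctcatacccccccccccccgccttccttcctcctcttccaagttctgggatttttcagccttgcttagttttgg
Slc34a2, chr5:53049103-53049352, plus strand: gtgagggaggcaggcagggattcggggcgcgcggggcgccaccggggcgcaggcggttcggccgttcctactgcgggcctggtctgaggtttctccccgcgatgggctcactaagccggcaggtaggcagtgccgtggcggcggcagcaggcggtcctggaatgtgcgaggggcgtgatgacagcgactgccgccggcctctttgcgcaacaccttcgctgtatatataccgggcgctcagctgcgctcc
Aqp8, chr7:123462044-123462293, plus strand: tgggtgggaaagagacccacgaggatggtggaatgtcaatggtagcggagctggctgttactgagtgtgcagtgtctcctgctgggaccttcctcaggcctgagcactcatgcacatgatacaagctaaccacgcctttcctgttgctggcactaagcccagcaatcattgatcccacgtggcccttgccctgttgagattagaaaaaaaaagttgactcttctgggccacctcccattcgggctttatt
Atp1b1, chr1:164458356-164458605, minus strand: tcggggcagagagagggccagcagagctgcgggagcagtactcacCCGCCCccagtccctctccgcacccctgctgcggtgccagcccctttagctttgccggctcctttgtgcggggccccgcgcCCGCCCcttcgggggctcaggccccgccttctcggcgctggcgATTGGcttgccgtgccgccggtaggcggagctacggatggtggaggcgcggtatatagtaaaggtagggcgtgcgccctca

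The Sgk1 window shown is the only 1 of its 6 that holds the full element. It also has a further single arm upstream of that element on the other strand, and a GC box on the other strand. The windows of Slc34a2 and Aqp8 hold none of the 6 motifs as spelled here, and that of Atp1b1 holds 2 GC boxes and a CCAAT box, all on the other strand. A single arm was in 16.1% of all windows, a forkhead site in 3.17%, a TATA box in 12.4%, a CCAAT box in 33.8% and a GC box in 32.7%. The windows also differ in base composition: Slc34a2 has 69.6% G and C with 28 CpG sites, Atp1b1 70.4% with 24, Aqp8 52.4% with 5 and this Sgk1 window 44.8% with 5, beside medians of 52.4% and 6 over all windows. The Sgk1 window of the most downstream start, not shown, has 70.4% with 22. It holds a TATA box and 4 GC boxes, and neither the full element nor a single arm. Slc34a2 and Aqp8, which rose together with castration, differ in CpG content. A match is a match of letters, and no binding was measured.

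**Figure D3:**
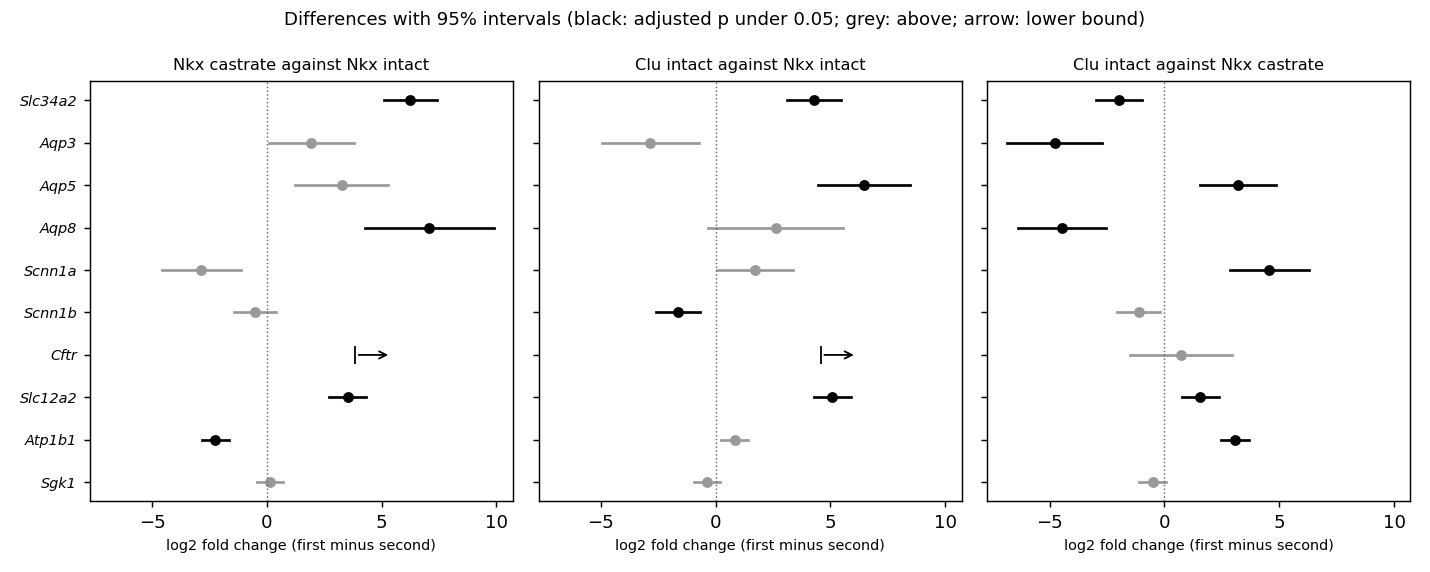
Log2 fold changes with 95% intervals for the 10 genes in the 3 contrasts, black where the adjusted p was under 0.05 and grey otherwise. Arrows for Cftr start at its lower bound, and the Sgk1 intervals cross 0 in each contrast.

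Over the 3 groups the order of the 10 genes changed, as shown by levels per kilobase of exon. In Nkx intact Atp1b1 (248 CPM per kilobase) and Sgk1 (102) led, the middle ranks of Scnn1a, Slc12a2, Aqp3 and Scnn1b overlapped, and Slc34a2 (0.792), Aqp8 (0.182) and Cftr (0) closed the order. In Nkx castrate Slc12a2 (124) and Sgk1 (112) led, with overlapping libraries, followed by Slc34a2 (60.6) and Atp1b1 (52.4), which also overlapped. In Clu intact Atp1b1 (441) and Slc12a2 (364) led, followed by Aqp5 (95.8), Sgk1 (78.4) and Scnn1a (70.5), each overlapping with its neighbour. Aqp8 (1.17), Aqp3 (1.09) and Cftr (0.45) closed the order there, with overlapping libraries. Exon lengths come from GENCODE M21, which is on another build than the counts.

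Genes with the most similar profiles were sought among genes with a mean of at least 10 CPM, by the root mean square difference in centred log2 CPM over the 6 libraries, for the 8 called genes at that level. Closest to Atp1b1 was the transcription factor gene Atoh8 (0.10), at 29.7 and 31.3 CPM (Nkx intact), 4.77 and 7.39 CPM (Nkx castrate) and 49.2 and 49.5 CPM (Clu intact). Scnn1b was closest to Id3 (0.10), an inhibitor of basic helix-loop-helix factors. Slc12a2 was closest to the lipid flippase gene Atp10b (0.48) and to Gabrp (0.58), a subunit of a chloride channel gated by GABA, and Gabrp was also the second closest to Aqp5 (0.71). The gene closest to Aqp5 was Kcnq1 (0.66), a potassium channel of secretory epithelia, at 1.82 and 0.691 CPM (Nkx intact), 5.56 and 9.68 CPM (Nkx castrate) and 146 and 147 CPM (Clu intact). Slc34a2 was closest to Nupr1 (0.74), a stress-induced nuclear protein, and Anpep (0.88), a brush-border aminopeptidase at 34.7 and 38.3, 393 and 1020.4, and 467 and 628 CPM in the same order. Scnn1a was closest to B4galt6 (0.74), a glycolipid galactosyltransferase, Aqp3 to the kinase gene Pim1 (0.82), and Aqp8 was closest to Fbxw17, at the largest distance of the 8 (1.14). With 6 libraries in 3 groups these distances mostly compare group patterns.

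The partners of these genes were described from 6 lists of 88 genes, of which 71 were tested. With castration 12 were higher and 4 lower, with a median log2 fold change of 0.04. In Clu intact over Nkx intact 18 were higher and 4 lower (median 0.28), and over Nkx castrate 14 were higher and 4 lower (median 0.19). The corresponding shares of all genes called higher were 4.02%, 6.29% and 8.82%, and lower 4.59%, 5% and 8.1%. Against a 2-fold minimum, some calls of the partners named below were lost. With castration these were the calls of Nr3c2, Atp1b2, Fxyd3, Wnk2, Wnk4 and Kcnq1. Between the intact groups they were those of Fkbp5, Furin, Tsc22d3 and Slc12a7, and against Nkx castrate those of Stk39, Slc12a7 and Nedd4l. The castration calls of Wnk4, Kcnq1 and Fxyd3 were also lost with only the groups compared, and that of Atp1b2 with library totals as the only scaling.

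The WNK kinases and their partners that switch Slc12a2 on, and other genes of its cation-chloride cotransporter family, form a list of 14 genes with 12 tested. With castration 2 were higher and none lower, in Clu intact over Nkx intact 3 were higher and 1 lower, and over Nkx castrate 3 were higher and none lower, with medians of -0.08, 0.10 and 0.16. Wnk2, a kinase upstream of the cotransporter, was at 60.7 and 47.1 CPM (Nkx intact), 105 and 180.1 CPM (Nkx castrate) and 552 and 550.2 CPM (Clu intact), the same order of groups as Slc12a2. It was 2.64-fold higher with castration (edgeR quasi-likelihood test, Benjamini-Hochberg adjusted p = 0.0191) and 10.2-fold higher in Clu intact than in Nkx intact (edgeR, adjusted p = 0.000692). Wnk4 was 2.37-fold higher with castration (edgeR, adjusted p = 0.0224) and 3.98-fold higher in Clu intact than in Nkx intact (edgeR, adjusted p = 0.00311). Both castration calls were lost without either Nkx intact library, and that of Wnk4 also without either Clu intact library (edgeR, adjusted p from 0.0531 to 0.199). Stk39, which phosphorylates Slc12a2, was 2.86-fold higher in Clu intact than in Nkx castrate (edgeR, adjusted p = 0.00433). With castration, where Slc12a2 rose, Stk39 went from 117 and 114 CPM to 54.2 and 82.2 CPM and was not called. Wnk1 averaged 438, 451 and 446 CPM in Nkx intact, Nkx castrate and Clu intact and was called in no contrast. The potassium-chloride exporter Slc12a7 was 4.05-fold and 2.75-fold higher in Clu intact than in Nkx intact and Nkx castrate (edgeR, adjusted p = 0.00699 and 0.0158), calls that were lost without Nkx intact 2 and without either Clu intact library, respectively (edgeR, adjusted p from 0.0568 to 0.0926).

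Of the 31 genes of chloride, bicarbonate and potassium transport, 27 were tested. With castration 5 were higher and 2 lower, in Clu intact over Nkx intact 10 and 1, and over Nkx castrate 8 and 0, with medians of 0, 0.52 and 0.63. Kcnq1, whose levels are given above, was 5.97-fold higher with castration (edgeR quasi-likelihood test, Benjamini-Hochberg adjusted p = 0.0118), 115-fold higher in Clu intact than in Nkx intact (edgeR, adjusted p = 0.00037) and 19.3-fold higher than in Nkx castrate (edgeR, adjusted p = 0.000572). The first of these calls was lost without Nkx intact 2 (log2 2.05; edgeR, adjusted p = 0.108) and in limma-voom (adjusted p = 0.126), and without Nkx intact 1 the first 2 log2 values were 3.43 and 7.72. Kcnn4, a calcium-activated potassium channel, was at 3.73 and 3.95, 0.898 and 1.92, and 98.4 and 131 CPM for Nkx intact, Nkx castrate and Clu intact, 29.7-fold and 82.5-fold higher in Clu intact (edgeR, adjusted p = 0.000443 and 0.000183), with log2 6.99 in place of 6.37 for the second without Nkx castrate 2. Clca1, a secreted regulator of chloride conductance, had no count in the 4 Nkx libraries and 87.8 and 77.4 CPM in Clu intact, at least 567-fold and 863-fold higher against the floor of 3 counts over a group. Clca1 belongs to a cluster of close copies whose reads may be split. Slc4a4, a sodium-bicarbonate cotransporter, was 6.43-fold higher with castration (edgeR, adjusted p = 0.00568), and Slc26a3, a chloride-bicarbonate exchanger, fell from 33.4 and 31.8 CPM to 1.91 and 0.148 CPM (edgeR, adjusted p = 0.0102). The call of Slc4a4 was lost without Nkx intact 1, and that of Slc26a3 without either Nkx intact library (edgeR, adjusted p from 0.0565 to 0.0921). The log2 fold change of Slc26a3, -4.91, was -7.68 with Nkx castrate 2 alone and -4.09 with Nkx castrate 1 alone.

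**Figure D4:**
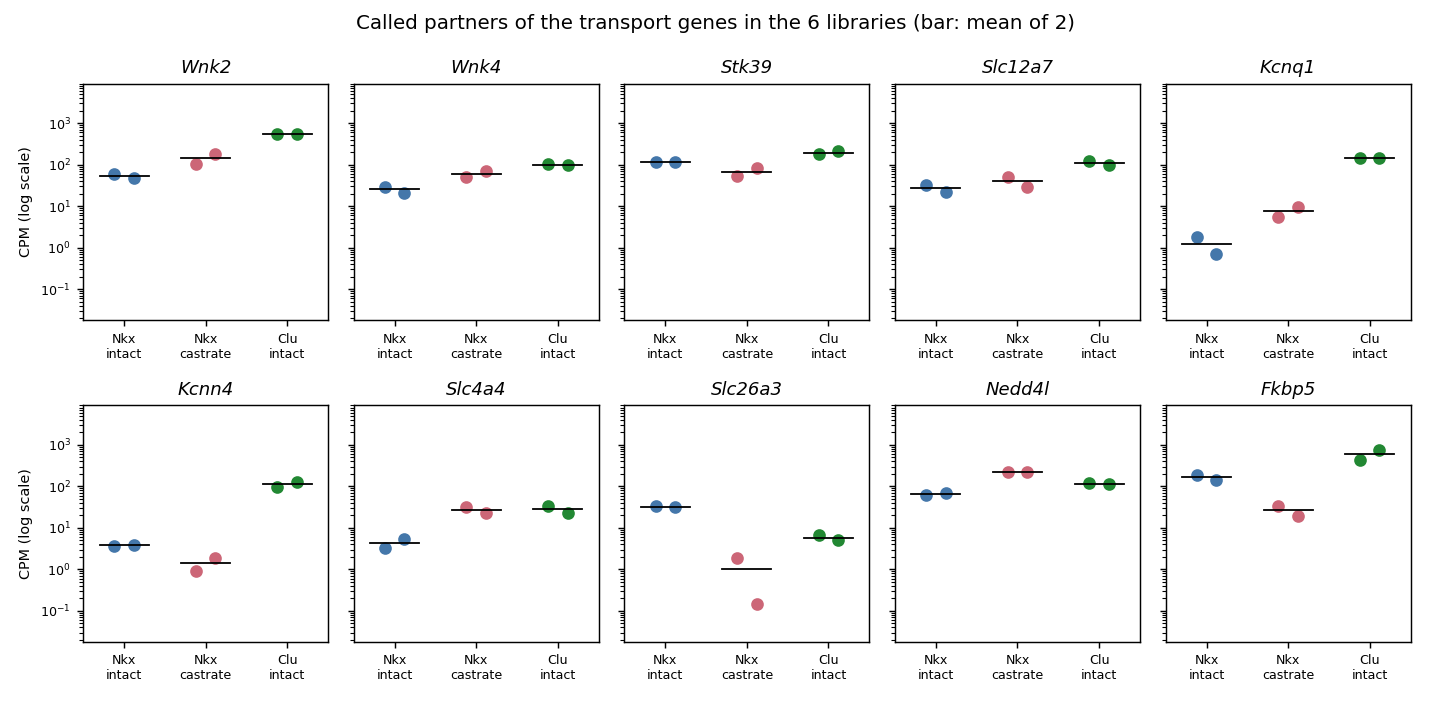
CPM on a log axis in each library for 10 partner genes called in at least 1 contrast, with 1 point per library and a bar at the mean of 2. Wnk2 and Kcnq1 climb from Nkx intact through Nkx castrate to Clu intact, whereas Fkbp5 is lowest in Nkx castrate.

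Of the 18 genes of ENaC control and mineralocorticoid response, 17 were tested: 3 higher and 1 lower with castration, 3 and 2 in Clu intact over Nkx intact, and 2 and 3 over Nkx castrate, with medians of -0.02, 0.05 and -0.46. Nedd4l, the ligase that removes ENaC from the membrane, was at 62.6 and 68.4 CPM (Nkx intact), 219 and 227 CPM (Nkx castrate) and 120.1 and 115 CPM (Clu intact). It was 3.41-fold higher with castration (edgeR quasi-likelihood test, Benjamini-Hochberg adjusted p = 0.00127), also when each library was left out. Clu intact was 1.9-fold below Nkx castrate for Nedd4l (edgeR, adjusted p = 0.00726), a call lost without either Clu intact library. The mineralocorticoid receptor gene Nr3c2 was 2.65-fold higher with castration (edgeR, adjusted p = 0.0162), a call lost without either Nkx intact library (edgeR, adjusted p = 0.10 and 0.165). Fkbp5 fell 6.33-fold with castration (edgeR, adjusted p = 0.00552; 0.0514 without Nkx intact 1) and was 3.56-fold higher in Clu intact than in Nkx intact (edgeR, adjusted p = 0.015), the latter lost without either Nkx intact library or Clu intact 2 (edgeR, adjusted p up to 0.152). Furin, a protease that cleaves ENaC subunits, was 2.68-fold and 3.15-fold lower in Clu intact than in Nkx intact and Nkx castrate (edgeR, adjusted p = 0.00349 and 0.00142). Tsc22d3, a glucocorticoid-induced leucine zipper gene, was 2.5-fold lower in Clu intact than in Nkx intact (edgeR, adjusted p = 0.0179), a call lost without Nkx intact 1 or either Clu intact library (edgeR, adjusted p from 0.103 to 0.144).

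Of 12 further sodium pump genes, 9 were tested: 2 higher and 1 lower with castration, 1 and 0 in Clu intact over Nkx intact, and 1 and 1 over Nkx castrate, with medians of 0.76, 1.20 and -1.70. Fxyd3, a pump regulator of epithelia, was 3.98-fold and 7.83-fold higher in Clu intact than in Nkx intact and Nkx castrate (edgeR quasi-likelihood test, Benjamini-Hochberg adjusted p = 0.00192 and 0.000351). With castration Fxyd3 fell from 27.4 and 25.8 CPM to 11.9 and 15.2 CPM (log2 fold change -0.98, SE 0.22; edgeR, adjusted p = 0.0351), a call that was lost without any library of Nkx intact or Clu intact (edgeR, adjusted p from 0.0885 to 0.174) and in limma-voom (adjusted p = 0.0655). Fxyd6, another regulator, was at 3.06 and 1.58 CPM (Nkx intact), 26.0 and 21.9 CPM (Nkx castrate) and 2.02 and 1.88 CPM (Clu intact). It was 10.3-fold higher with castration (edgeR, adjusted p = 0.00542; 0.0525 without Nkx intact 2). The beta chain Atp1b2, known from glia, was 12.5-fold higher with castration, at 19.8 and 7.24 CPM against 1.15 and 0.988 CPM (edgeR, adjusted p = 0.0404). That call was lost without either Nkx intact library (edgeR, adjusted p = 0.212 and 0.259) and in limma-voom (adjusted p = 0.181), and the log2 value of 3.65 was 2.75 without Nkx castrate 1, the library with more stromal RNA, whose part was not tested.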

How the data were processed

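The deposited table holds whole-number read counts that the authors assigned to genes, named by symbol, with a column per library; the libraries were prepared from 2 ng of RNA, per the labels. The submitters' processing notes list FastQC 0.11.9, STAR 2.7.9a and featureCounts from Subread 2.0.1, on GRCm39. Annotation, strandedness and the treatment of multiply mapped reads are not stated in what was used here.

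Counts were analysed in R 4.3.3. After edgeR 4.0.16 (filterByExpr) removed low genes, libraries were TMM-scaled and a quasi-likelihood model with 3 group means was fitted to all 6, leaving 3 residual degrees of freedom; the biological coefficient of variation was 33.7%. Two-sided F tests were Benjamini-Hochberg adjusted over 13846 genes, with calls at an adjusted p under 0.05. Standard errors are the model's. The code was tested on simulated counts. Other scalings and filters, a minimum fold of 2, DESeq2 1.42.0, limma-voom (limma 3.58.1), a replicate block, fits of 2 groups alone and fits without each library were run as alternatives. Partner genes are named where they were among the 3 called genes of a list with the largest change in a contrast and a mean of at least 5 CPM; other names were chosen after their values were seen. Exon lengths are from GENCODE M21. The 10 genes and the lists were chosen with earlier results of these data known. A further gene is not reported here.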

Additional observations from a re-analysis of the deposited data

How the results depend on the processing

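With groups of 2 libraries, calls depended on the setting more than directions did. All 30 differences of the 10 genes kept their sign under every alternative except that of Sgk1 with castration, which ran from log2 -0.24 (without Nkx castrate 2) to 0.44 (without Nkx castrate 1); Slc12a2 has no value in the fit without the 50 most abundant genes, to which it belongs. In the order castration, Clu intact over Nkx intact, and Clu intact over Nkx castrate, 5, 5 and 7 transport genes and 1192, 1563 and 2342 genes in all were called. Leaving out 1 library gave 3 to 7, 1 to 8 and 3 to 8 transport genes, and 209 to 2412, 391 to 3351 and 687 to 3854 genes. Without a filter on low counts the totals were 2300, 2665 and 3518 genes, with 8 and 9 transport genes in the first 2 contrasts. DESeq2 called 2015 and 2457 genes in the first 2, and limma-voom 3 and 2 transport genes there. A 2-fold minimum left 268, 410 and 583 genes, with 3 transport genes in the second and 4 in the third. With only the groups compared, 671 and 3309 genes were called in the first 2. Where calls changed the cause was not tested. Same-numbered libraries were not linked by the labels, and the correlation of replicate differences between groups was 0.09, 0.04 and 0.23 across genes. The replicate block gave 6, 6 and 7 transport genes and 1511, 1964 and 2779 genes, adding Aqp3 in the first 2 contrasts. Cftr and Aqp8 rest on 0 and 6 counts in Nkx intact, so the size of their rise is set by depth.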
